A study of Mus musculus with 6 samples.

Results

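Open chromatin in the later introns of genes was compared between mouse livers with Dyrk1b overexpression and control livers. The members were taken by position only, from the deposited annotation. A peak was included if it lay in intron 2 or any later intron, if the gene of that intron was also the gene with the nearest start site, and if that start lay within 50 kb. This gave 4135 of 22412 deposited peaks (18.4%), in 3192 genes. The gene condition removed none of the 7843 later intron peaks, since both gene columns named the same gene in each. First introns were left out by the rule itself. No member lay upstream of its gene's start.

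ATAC-seq was used to profile chromatin: nuclei are exposed to a transposase, which inserts sequencing adapters where DNA is accessible. The 3 control libraries came from livers labelled Ad-EGFP, with the genotype given as control, and the 3 treated libraries from livers labelled Ad-Dyrk1b, with the genotype given as Dyrk1b overexpression. The prefix Ad is read here as adenovirus and EGFP as the green fluorescent protein carried by the control vector. The sources used here do not give strain, age, sex, vector dose or the time between vector and sampling. All nuclei came from whole liver, so each value is an average over hepatocytes and every other cell of the organ. The labels do not say that libraries of a group came from separate animals, and p-values therefore measure the spread between these libraries, which may be technical in part. No value in the peak table checks that Dyrk1b protein was raised.

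DYRK1B is a dual-specificity kinase that phosphorylates itself on tyrosine and its substrates on serine and threonine, and the series title links the hepatic kinase to whole-body glucose balance and to Wbp2, a transcriptional coactivator that binds YAP. Introns make up much of the length of most genes, and besides splice signals they hold enhancers, which are short stretches bound by transcription factors that can act on the promoter of their own gene or of others. First introns are often rich in such elements close to the promoter. Open sites in later introns are further into the transcribed body and are mostly distal elements, alternative promoters or repeats.

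Control libraries held 762633 to 855787 reads in peaks and Dyrk1b libraries 768418 to 1267934, with the largest number in Dyrk1b library 3. The peaks thus took 1.67% to 2.62% of the totals from which the deposited RPKM values were made. The median member held 23 to 42 reads per library, so a single read moved such a peak by several percent. A total of 4054 members passed the filter on low counts and entered the test with all other peaks, and 81 did not. The smallest count in the table, 1, occurred in 71 member values, and whether empty peaks were set to 1 is not stated. Of 16 hepatocyte marker genes 10 had a peak of any kind, with Ttr, Tat and Cps1 among the 6 without one, while 7 of 16 liver endothelial markers and 4 of 15 macrophage markers had a peak.

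The members lay 60 to 49989 bases from the start of their gene, with a median of 18060 and quartiles of 9102 and 31023.5 bases. Intron 2 held 1599 of them (38.7%) and intron 3 another 725 (17.5%), while 668 (16.2%) lay in the last intron of the annotated transcript. The highest intron number was 184, of 187 introns, in the predicted gene Gm11639. The median member was 410 bases long, against 456 bases for all peaks. Its mean level over the 6 libraries was 30.9 CPM, the unit used from here on for TMM-scaled reads relative to all peak reads, against 35.5 CPM for all peaks. Later intron peaks were thus shorter and weaker than the average peak. Most genes contributed a single peak (2502 genes), 508 contributed a pair and 182 contributed at least 3, and 487 members lay in genes with an identifier but no symbol.

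One member passed the test, and its direction was up. The peak lies in intron 3 of 6 of Mbd2, which encodes a protein that binds methylated CpG and recruits the NuRD repressor complex. It spans chr18:70743897-70744311 in the deposited coordinates, 42844 bases from the gene's start. Its level in EGFP libraries 1, 2 and 3 was 10.6, 6.07 and 9.41 CPM, and in Dyrk1b libraries 1, 2 and 3 it was 38.5, 29.8 and 43.8 CPM. Every Dyrk1b library was above every EGFP library, and the lowest Dyrk1b value was well clear of the highest EGFP value. The means were 8.68 ± 2.33 and 37.3 ± 7.07 CPM (SD, n = 3 each), and the log2 change was 2.10 ± 0.43 (SE), with an adjusted p of 0.0288 by edgeR's quasi-likelihood test with Benjamini-Hochberg adjustment over all tested peaks. In all, 7 of 22051 tested peaks passed (0.0317%), so 1 of 4054 members (0.0247%) is near that background. With loess offsets, which remove a trend with level, the edgeR adjusted p was 0.0684, and with the totals behind the RPKM values as library sizes it was 0.0543. It was 0.141 by limma-trend, DESeq2 gave this peak no adjusted p, and in edgeR it was over 0.05 when any library other than Dyrk1b library 2 was left out, reaching 0.213 without Dyrk1b library 3. The size of the change moved little, from 1.87 by limma-trend to 2.27 without EGFP library 1, with 1.92 for loess offsets and 2.26 for the RPKM totals. More cells with this site open and a wider opening in the same cells cannot be told apart in whole liver.

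At an unadjusted p under 0.05, 312 members (7.70%) were higher with Dyrk1b, against 6.44% of all peaks, and 306 (7.55%) were lower, against 7.72% of all peaks. The 3 Dyrk1b values lay above all 3 EGFP values for 449 members (11.1%), against 9.53% of all peaks, and below them for 370 members (9.13%), against 9.97% of all peaks. The members' shares are close to the background in both directions, with slightly more on the high side and slightly fewer on the low side. The members described next are those with the lowest unadjusted p in each direction whose groups did not overlap, 12 each way with 1 per gene. They were picked by these values, which are therefore a description.

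Among the members with higher values in Dyrk1b libraries, Etv5, an ETS-family transcription factor, had a peak in intron 5 of 12 (chr16:22247571-22248370) at 23.4, 23.1 and 33.6 CPM in EGFP libraries and 67.7, 67.3 and 49.1 CPM in Dyrk1b libraries. The intron 7 peak of Atg4c, a cysteine protease that processes ATG8 proteins in autophagy, was at 28.1, 21.9 and 17.5 CPM in EGFP libraries and at 45.1, 51.8 and 58.4 CPM in Dyrk1b libraries. For Acad9, a mitochondrial acyl-CoA dehydrogenase that is also needed to assemble respiratory complex I, the intron 8 peak was at 27.0, 15.8 and 30.9 CPM against 55.7, 56.2 and 50.7 CPM. At each of these the lowest Dyrk1b library stands above the highest EGFP library. The log2 changes were 1.19 ± 0.29 at Etv5, 1.20 ± 0.31 at Atg4c and 1.14 ± 0.31 at Acad9, with edgeR adjusted p-values of 0.104, 0.107 and 0.112, so none passed.

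Cox10, which makes the haem A precursor of cytochrome c oxidase, had an intron 3 peak at 14.1, 6.07 and 9.41 CPM in EGFP libraries and 26.5, 29.8 and 34.6 CPM in Dyrk1b libraries. Rab11fip3, an effector of the recycling endosome GTPase RAB11, had an intron 3 peak at 10.6, 8.50 and 10.8 CPM against 38.5, 26.5 and 30.7 CPM. The intron 2 peak of Gpx3, the secreted plasma glutathione peroxidase, was at 21.1, 14.6 and 12.1 CPM against 41.1, 36.4 and 43.0 CPM. None of these groups overlap, and the EGFP values rest on few reads. The log2 changes were 1.61 ± 0.46 at Cox10, 1.66 ± 0.45 at Rab11fip3 and 1.32 ± 0.36 at Gpx3. The intron 6 peak of Mast2, a microtubule-associated kinase, was at 8.21, 3.64 and 1.34 CPM against 27.9, 20.95 and 19.96 CPM, where 1.34 CPM is the single read of EGFP library 3. Tmem241, a multipass membrane protein, had an intron 7 peak at 7.03, 12.1 and 1.34 CPM against 22.6, 36.4 and 26.1 CPM, again with 1 read in EGFP library 3. Both values moved when a library was left out. The change at Mast2 was 2.30 ± 0.63 and became 3.09 without EGFP library 1 and 1.91 without EGFP library 3. That at Tmem241 was 2.01 ± 0.53 and became 2.67 without EGFP library 2 and 1.56 without EGFP library 3. The remaining 4 were Tekt5, a sperm tail tektin, at 1.49, Dnajc17, a J-domain cochaperone, at 1.37, Yaf2, a partner of Polycomb complexes, at 1.07, and Mbd2 as above.

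On the low side, Palmd, which encodes palmdelphin, a membrane-associated protein of cell shape, had a peak in intron 2 of 7 (chr3:116744296-116744862) at 58.6, 68.0 and 84.7 CPM in EGFP libraries and 37.2, 30.9 and 20.7 CPM in Dyrk1b libraries. Irak2, a kinase-like adaptor of Toll-like and interleukin-1 receptor signalling, had a peak in intron 2 of 12 (chr6:113638537-113639252) at 64.5, 91.1 and 65.9 CPM against 25.2, 35.3 and 39.9 CPM. Samm50, the core of the machinery that inserts beta-barrel proteins into the outer mitochondrial membrane, had a peak in intron 2 of 14 (chr15:84080623-84081504) at 91.5, 107 and 90.1 CPM against 58.4, 40.8 and 54.5 CPM. Each was lower in all 3 Dyrk1b libraries than in any EGFP library. The log2 changes were −1.28 ± 0.28 at Palmd, −1.11 ± 0.27 at Irak2 and −0.91 ± 0.23 at Samm50, with edgeR adjusted p-values of 0.0587, 0.0966 and 0.105. Palmd passed in edgeR when Dyrk1b library 1 was left out, at a log2 change of −1.46 and an adjusted p of 0.0430. DESeq2 called the Irak2 and Samm50 peaks, both at an adjusted p of 0.0494. It gave an adjusted p to 562 members and called 2 of them (0.356%), both lower, against 0.329% of the 5466 peaks for which it gave one.

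Dpys, which opens the ring of dihydropyrimidines in pyrimidine breakdown, had an intron 7 peak at 141, 137 and 102 CPM in EGFP libraries and 70.3, 59.5 and 90.6 CPM in Dyrk1b libraries. The intron 5 peak of Acot12, a liver thioesterase that hydrolyses acetyl-CoA in the cytosol, was at 39.9, 58.3 and 55.1 CPM against 21.2, 20.95 and 28.4 CPM. Adh1, the classical alcohol dehydrogenase, had an intron 2 peak at 78.6, 75.3 and 71.3 CPM against 62.4, 32.0 and 31.5 CPM. Dyrk1b library 1 stood nearer to the EGFP group than the other two at Adh1, and no group overlapped at any of the 3 peaks. The log2 changes were −0.77 ± 0.22 at Dpys, −1.09 ± 0.31 at Acot12 and −0.88 ± 0.26 at Adh1, with edgeR adjusted p-values of 0.132, 0.137 and 0.150. The others described were Tpr, a nuclear pore basket protein, at −0.97, Sgms1, a Golgi sphingomyelin synthase, at −1.12, Ccm2l at −1.02, Dop1b at −0.99 and Slc3a1, the heavy subunit of a cystine transporter, at −0.78.

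**Figure D1:**
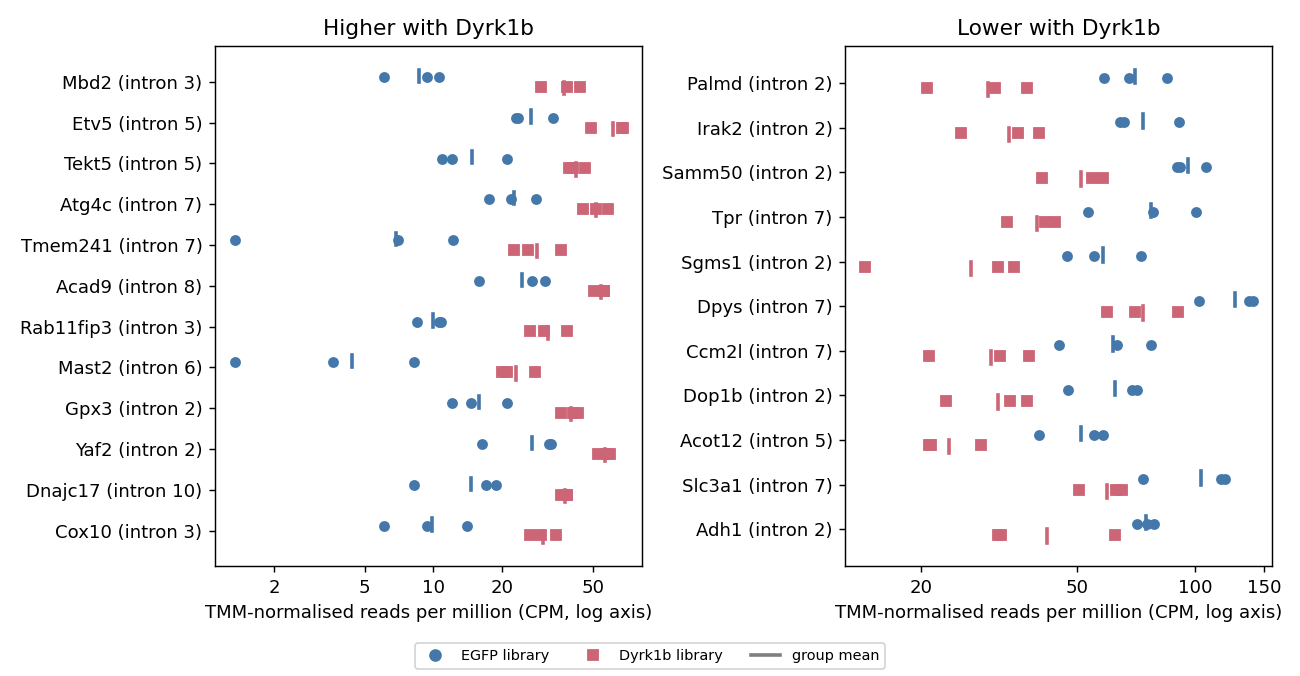
Level of 12 later intron peaks higher and 11 lower with Dyrk1b, in TMM-normalised reads (CPM), on a log axis. Each point is 1 library (circles EGFP, squares Dyrk1b), bars are group means, and no group overlaps because the peaks were picked that way; the Mbd2 peak runs from 6.07 to 10.6 CPM in EGFP and from 29.8 to 43.8 CPM in Dyrk1b libraries.

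The log2 change went with the level of a peak. When all members were divided into 5 equal bins by their mean level over the 6 libraries, the median log2 change went from 0.41 in the weakest bin, through 0.26, 0.10 and −0.028, to −0.16 in the strongest. The limits of the bins were 7.40, 20.7, 27.5, 35.01, 46.6 and 1886 CPM. The filter on low counts removed all 81 untested members from the weakest bin and left 746 of 827, and a weak peak that passed only through the group where it was high had to differ, so the value of that bin is read with care. No member of the other bins was removed. The share with Dyrk1b values above all EGFP values went from 19.7% in the weakest bin to 3.75% in the strongest, and the share with values below went from 4.83% to 16.3%. All tested peaks of the table behaved alike over the same limits, with medians of 0.39, 0.21, 0.073, −0.028 and −0.13, so the trend is not particular to later introns. With loess offsets the members' medians were 0.14, 0.080, 0.035, −0.0017 and −0.040. Spearman's rho between mean level and log2 change over members was −0.33, and −0.31 over all peaks, where the points share libraries and peaks and no p is given.

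The same was visible within each library. The ratio of the level at the 90th percentile of members to that at the 10th percentile was 5.80, 4.64 and 5.22 in EGFP libraries 1, 2 and 3, and 4.09, 3.71 and 3.90 in Dyrk1b libraries 1, 2 and 3. The range of levels was narrower in every Dyrk1b library than in any EGFP library. Over all peaks the ratios were 6.55, 5.42 and 6 against 4.58, 4.53 and 4.13, with the same order of groups. The spread of levels thus moves with the groups, and its part in the high and low values above was not tested.

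**Figure D2:**
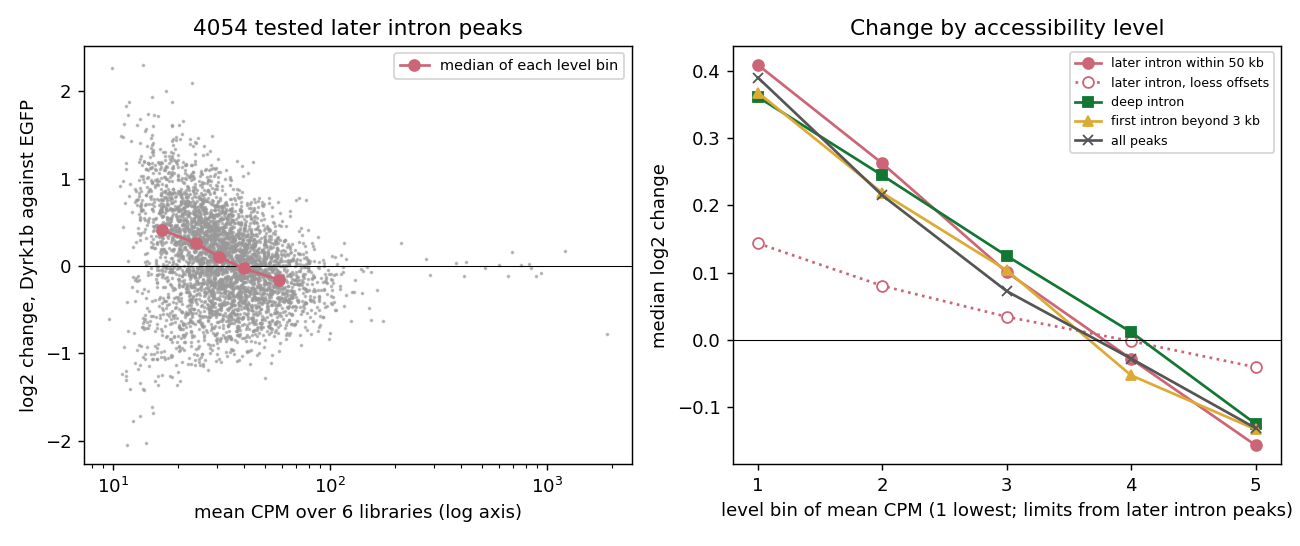
Left, log2 change of each tested later intron peak (grey) against its mean level over 6 libraries (CPM, log axis), with the median of 5 level bins; right, medians per bin for later intron, deep intron, first intron and all peaks, and for later intron peaks with loess offsets (dotted). Medians of members go from 0.41 in the weakest to −0.16 in the strongest bin, and from 0.14 to −0.040 with loess offsets.

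Over all 4054 tested members the median log2 change was 0.054, with quartiles of −0.28 and 0.40, and 54.1% of members had a positive value. The median of all tested peaks was 0.0047. Deep intron peaks, those in later introns over 50 kb from the start, had a median of 0.12 and 59.5% positive values. First intron peaks over 3 kb from the start had 0.058 and 54.5%, close to the members. Median levels followed the opposite order, with 30.9 CPM for members, 27.0 CPM for deep intron peaks and 30.3 CPM for first intron peaks. With loess offsets the medians of members, deep intron, first intron and all peaks were 0.033, 0.051, 0.022 and 0.019. With the totals behind the RPKM values as library sizes they were 0.22, 0.29, 0.22 and 0.17, so that scaling moved every set up and kept their order.

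A share per library gave a test that does not use the per-peak fit. Members took 15.7%, 15.3% and 15.3% of the reads in peaks in EGFP libraries 1, 2 and 3, and 15.8%, 15.2% and 15.8% in Dyrk1b libraries 1, 2 and 3. The groups overlapped. The means were 15.4% ± 0.231 and 15.6% ± 0.353 (SD, n = 3 each), and the exact two-sided permutation p was 0.4, where 3 against 3 libraries cannot go below 0.1. Without the 52 peaks over 200 CPM, of which 17 are members, the difference went from 0.199 to 0.371 percentage points, with an exact permutation p of 0.3. That limit was chosen after seeing that few peaks hold many reads.

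The reads in members were next set against those in deep intron peaks of the same library. The log2 ratio was 0.44, 0.40 and 0.41 in EGFP libraries and 0.37, 0.36 and 0.36 in Dyrk1b libraries. All 3 Dyrk1b values lay below all 3 EGFP values. The means were 0.42 ± 0.019 and 0.36 ± 0.0052 (SD, n = 3 each), a difference of −0.054, and the exact two-sided permutation p of 0.1 is the smallest the design allows, so this test could not reach 0.05. Without the peaks over 200 CPM the difference was −0.056. Within the same bins of level the medians of the per-peak log2 change were 0.41, 0.26, 0.10, −0.028 and −0.16 for members and 0.36, 0.24, 0.12, 0.012 and −0.12 for deep intron peaks, so that deep intron peaks lay lower in the 2 weakest bins and higher in the other 3. Against first intron peaks over 3 kb from the start the ratio was 0.33, 0.35 and 0.36 in EGFP libraries and 0.38, 0.31 and 0.32 in Dyrk1b libraries. These groups overlapped, with a difference of −0.0089 and an exact permutation p of 0.8, and −0.0029 with an exact permutation p of 1 without the peaks over 200 CPM.

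**Figure D3:**
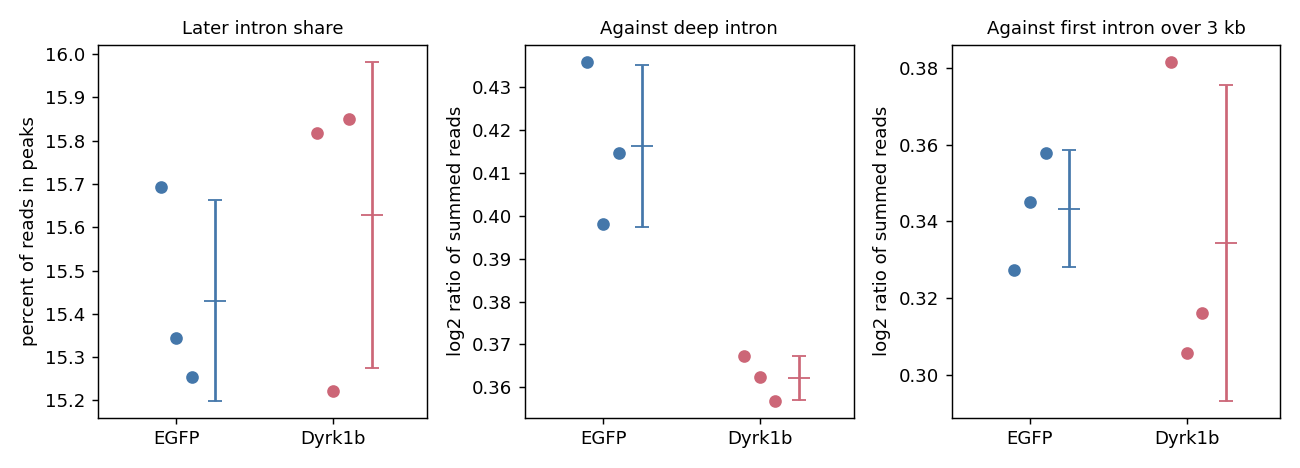
Share of reads in peaks held by later intron peaks (percent), and log2 ratio of their reads to those in deep intron peaks and in first intron peaks beyond 3 kb, per library. Points are libraries, crossbars are group means with SD (n = 3 each), and the axes do not start at 0. The ratio to deep intron peaks lies between 0.40 and 0.44 in EGFP and between 0.36 and 0.37 in Dyrk1b libraries, while the other quantities overlap.

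Distance from the gene's start went with small differences among members. The median log2 change was −0.037 for members closer than 3 kb and −0.075 from 3 to 5 kb. The bins from 5 to 10, 10 to 20, 20 to 30, 30 to 40 and 40 to 50 kb had 0.026, 0.090, 0.082, 0.080 and 0.045. In deep intron peaks the medians were 0.10 from 50 to 60 kb, 0.13 from 60 to 100 kb, 0.13 from 100 to 200 kb and 0.10 beyond 200 kb. Members within 5 kb of the start thus had medians below 0 and the rest above it. The step from the bin before 50 kb to the one after it was smaller than those from 3 to 5 kb to 5 to 10 kb and from there to 10 to 20 kb, and larger than the others. With loess offsets the bin from 40 to 50 kb was at −0.0063 and that from 50 to 60 kb at 0.066, which was then the largest step between neighbouring bins. The difference between these bins was not tested. The bin from 3 to 5 kb had the largest share of members with all Dyrk1b values below all EGFP values, 16.2% of 204 tested peaks. That share was 9.13% over all members and 9.97% over all peaks. By level bin of members it was 8.22% from 27.5 to 35.01 CPM, 10.5% from 35.01 to 46.6 CPM and 16.3% above that. The 3 to 5 kb bin had a median level of 35.3 CPM. All Dyrk1b values lay above all EGFP values for 9.31% of the same 204 peaks. The bin was singled out after its values were seen, and its difference was not tested. The median level went down along the same axis, from 36.1 CPM within 3 kb to 28.6 CPM from 40 to 50 kb and 24.7 CPM beyond 200 kb. With the totals behind the RPKM values every bin was positive, with 0.12 within 3 kb and 0.25 from 10 to 20 kb. Spearman's rho of the log2 change with distance was 0.047 over members.

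**Figure D4:**
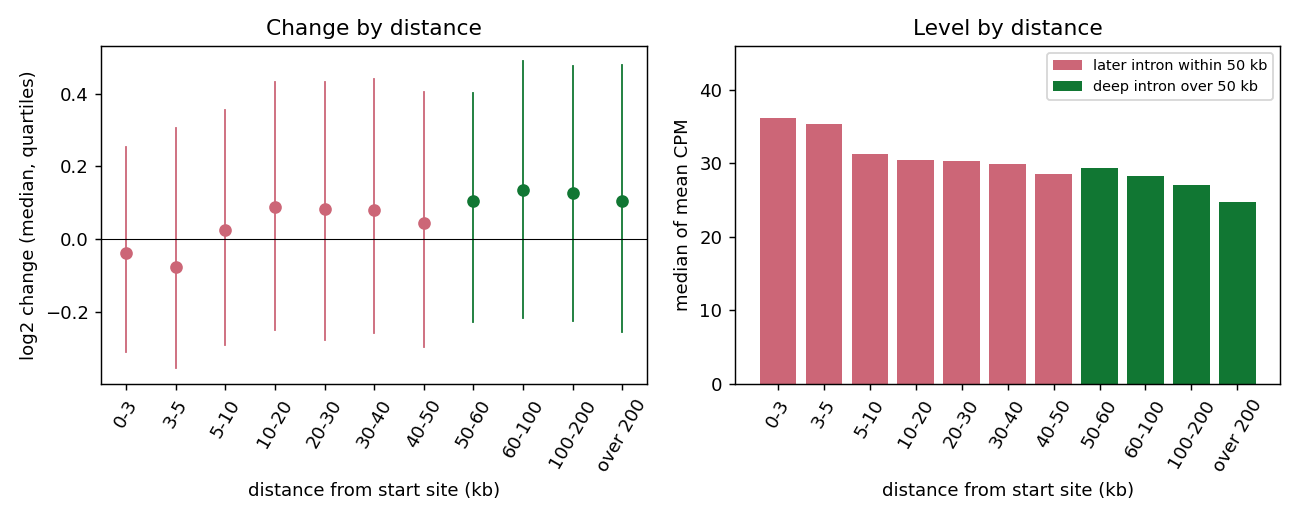
Log2 change, Dyrk1b over EGFP, of later intron peaks in bins of distance from the gene's start (kb), followed by deep intron peaks beyond 50 kb, with medians (points) and quartiles (lines), beside the median level (CPM, bars) of each bin. Medians lie between −0.075 and 0.090 for members and between 0.10 and 0.13 beyond 50 kb, while quartiles reach from −0.35 to 0.49.

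The intron's number was read in the same way. Peaks in intron 2 had a median log2 change of 0.011 (1570 tested), those in intron 3 had 0.056 (715), in introns 4 and 5 0.071 (675), in introns 6 to 10 0.11 (723) and in introns 11 to 20 0.12 (312). The 59 tested peaks beyond intron 20 had −0.0041. With loess offsets the medians in the same order were −0.0039, 0.033, 0.058, 0.072, 0.030 and 0.11, so the last group changed from the lowest place to the highest. Median levels were between 28.4 and 32.3 CPM in all of these. Peaks in the last intron, 652 tested, had 0.048 against 0.056 for the other members, so the last intron did not stand apart.

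Groups of genes were read from lists of liver functions, which give counts and medians only, as the members were not tested as lists. Member peaks in genes of lipid synthesis and storage were mostly lower with Dyrk1b, with 2 of 16 positive and a median of −0.32. Fatty acid oxidation had 4 of 12 positive and −0.36, amino acid and urea metabolism 2 of 8 and −0.52, and plasma proteins 2 of 8 and −0.33. The actin cytoskeleton list had 3 of 12 positive and −0.28, and nuclear receptors with their cofactors 5 of 17 and −0.21. None of these peaks passed the test, and the medians of these 6 lists were negative under TMM, loess, library size and RPKM totals alike. For comparison, the median of all members was 0.054 and 54.1% were positive. Median levels were 52.5 CPM for lipid synthesis, 40.1 CPM for fatty acid oxidation and 38.3 CPM for amino acid metabolism, against 30.9 CPM for all members. They were 33.9 CPM for plasma proteins, 31.6 CPM for nuclear receptors and 29.8 CPM for actin genes. The level bins that hold these values had member medians of −0.16 over 46.6 CPM, −0.028 from 35.01 to 46.6 CPM and 0.10 from 27.5 to 35.01 CPM. The part of level in the list medians was not tested.

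In lipid synthesis, Acacb, the mitochondrial acetyl-CoA carboxylase whose product restrains fatty acid import, had an intron 2 peak at 64.5, 93.5 and 106 CPM in EGFP libraries and 74.3, 66.2 and 50.7 CPM in Dyrk1b libraries. Cidec, a lipid droplet protein, had an intron 5 peak at 46.9, 36.4 and 30.9 CPM against 33.2, 15.4 and 17.7 CPM. The groups overlapped at both. The log2 changes were −0.48 ± 0.24 and −0.83 ± 0.35, with edgeR adjusted p-values of 0.345 and 0.290. In fatty acid oxidation, Acaa1b, a peroxisomal thiolase, was at 72.7, 64.4 and 72.6 CPM against 42.5, 30.9 and 59.9 CPM in intron 3, and Cpt1a, the carnitine transferase that admits fatty acids to mitochondria, was at 55.1, 58.3 and 45.7 CPM against 37.2, 35.3 and 42.2 CPM in intron 3. Neither pair of groups overlapped, at log2 changes of −0.62 ± 0.26 for Acaa1b and −0.47 ± 0.27 for Cpt1a. Acox2, a peroxisomal oxidase of bile acid intermediates, had −0.42 ± 0.23 with overlapping groups.

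In amino acid and urea metabolism, Ass1, the argininosuccinate synthase of the urea cycle, had an intron 5 peak at 50.4, 47.4 and 55.1 CPM in EGFP libraries and 21.2, 44.1 and 21.5 CPM in Dyrk1b libraries. Slc38a4, an amino acid transporter of hepatocytes, had an intron 12 peak at 65.7, 71.7 and 91.4 CPM against 58.4, 55.1 and 44.5 CPM. All Dyrk1b values were below all EGFP values at both. The log2 changes were −0.82 ± 0.31 and −0.54 ± 0.24, with edgeR adjusted p-values of 0.235 and 0.306. Prodh2, a hydroxyproline dehydrogenase, was at −0.79 ± 0.38 with overlapping groups, and at −1.40 without Dyrk1b library 3. Among plasma proteins the coagulation factor gene F5 had a weak intron 10 peak at 1.17 ± 0.55, Masp2, a complement protease, was at −0.59 ± 0.32 and Itih4 at −0.49 ± 0.29. Among actin genes, Tns3, a focal adhesion protein, was at −0.89 ± 0.34 and Actn4, an actin crosslinker, at −0.62 ± 0.24, both with groups apart, beside Palmd above. Among nuclear receptors, the mineralocorticoid receptor Nr3c2 was at −1.13 ± 0.45 and the glucocorticoid receptor Nr3c1 at −1.10 ± 0.46, and both overlapped. The Nr3c2 value became −1.83 without Dyrk1b library 1 and −0.73 without Dyrk1b library 3. Nrip1, a corepressor of nuclear receptors, was at −0.66 ± 0.37.

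Glucose and insulin genes, which the title of the series concerns, showed no common direction. Glucose and glycogen metabolism had 6 of 15 positive and a median of −0.050, which became 0.097 with the RPKM totals. Khk, the fructose kinase, had an intron 2 peak at 45.7, 38.9 and 47.1 CPM in EGFP libraries and 31.8, 27.6 and 26.9 CPM in Dyrk1b libraries. The groups were apart at Khk, with a log2 change of −0.62 ± 0.31. Slc2a2, the hepatic glucose transporter, had −0.35 ± 0.22 with overlapping groups. Insulin and mTOR signalling had 7 of 13 positive and a median of 0.094. Its Grb14, an adaptor that inhibits the insulin receptor, had an intron 2 peak at 34.0, 43.7 and 51.1 CPM against 21.2, 17.6 and 20.7 CPM. Every Dyrk1b value was below every EGFP value, the log2 change was −1.10 ± 0.34, and the edgeR adjusted p was 0.166. Igf1, the liver's main circulating growth factor, had 4 member peaks, 2 of them positive, from −0.66 to 0.44. The lowest of these was at −0.66 ± 0.33, and at −0.33 without Dyrk1b library 3. A peak of Mtor was at −0.35 ± 0.24, and groups overlapped at both peaks.

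The lists tied to DYRK1B and its partners were small. Hippo and YAP signalling, the pathway of WBP2's partner YAP, had 5 of 9 positive and a median of 0.029. Its Fat1, a giant cadherin upstream of the pathway, was at 1.43 ± 0.63 from a weak peak with 1 read in EGFP library 3, and Amotl2, which holds YAP in the cytoplasm, was at −0.43 ± 0.31. Vgll4, which competes with YAP for TEAD factors, had 5 member peaks, and the strongest was at 171, 68.0 and 91.4 CPM against 69.0, 68.4 and 61.4 CPM. EGFP library 1 alone is high there and the groups overlap, at −0.74 ± 0.24, and at −0.27 without that library (edgeR adjusted p of 0.686). The list of DYRK and HIPK kinases with the DREAM complex, a repressor of cell cycle genes that DYRK kinases help to assemble, had 3 of 4 positive and a median of 0.38. Ccnd1, cyclin D1, a known substrate of DYRK1B, had an intron 2 peak at 17.6, 17.0 and 18.8 CPM against 26.5, 28.7 and 30.7 CPM. The groups did not overlap, and the log2 change was 0.69 ± 0.39 with an edgeR adjusted p of 0.415. Dcaf7, a scaffold of DYRK1 kinases, was at −0.52 ± 0.28 and at −0.17 without EGFP library 2, and Tfdp1, the partner of E2F factors, at 0.96 ± 0.56.

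Axon guidance and neuronal adhesion genes, little used in hepatocytes, had 6 of 7 positive and the highest list median, 0.50, which stayed positive under every scaling run and was 0.36 with loess offsets. Nrp1, a receptor for semaphorins and VEGF that endothelial cells also carry, had an intron 2 peak at 15.2, 19.4 and 22.9 CPM in EGFP libraries and 41.1, 38.6 and 39.2 CPM in Dyrk1b libraries. The groups were apart, with a log2 change of 1.05 ± 0.35 and an edgeR adjusted p of 0.193. Epha4, an ephrin receptor, was at 0.91 ± 0.50, and Ntn1, a secreted guidance cue, at 0.97 ± 0.71, and at 0.37 without Dyrk1b library 1. Chromatin remodellers and readers had 9 of 20 positive and a median of −0.071, which was 0.10 with the RPKM totals, and held the called Mbd2 peak. Dnmt3a, a de novo DNA methyltransferase, was at 21.1, 12.1 and 18.8 CPM against 38.5, 32.0 and 31.5 CPM in intron 3, and Hdac4, a class IIa deacetylase, was at 61.0, 47.4 and 91.4 CPM against 51.8, 32.0 and 35.3 CPM in intron 2. The groups were apart at Dnmt3a, at 0.96 ± 0.38, and overlapped at Hdac4, at −0.76 ± 0.27.

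The remaining lists had medians between −0.15 and 0.015. Inflammation and NF-kB signalling had 6 of 14 positive and −0.13, with Irak2 above, the TNF receptor gene Tnfrsf1b at −0.55 ± 0.24 and the kinase gene Jak2 at 0.66 ± 0.30. Circadian clock genes had 4 of 10 and −0.15, with Per2 at −0.68 ± 0.26. Xenobiotic and bile acid metabolism had 9 of 19 tested and −0.074, with the export pumps Abcc2 at −0.76 ± 0.28 and Abcc3 at −0.61 ± 0.25 and the glutathione transferase Gstm1 at −0.73 ± 0.29, all 3 with groups apart. Liver transcription factors had 5 of 11 and −0.030, which was 0.0022 with library size alone, and Nfib, a nuclear factor I protein, was at 0.87 ± 0.34. ETS and SOX factors had 2 of 3 positive and a median of 0.015. The medians of the inflammation, circadian, xenobiotic and liver factor lists turned positive with the RPKM totals, under which the median of all peaks was 0.17.

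**Figure D5:**
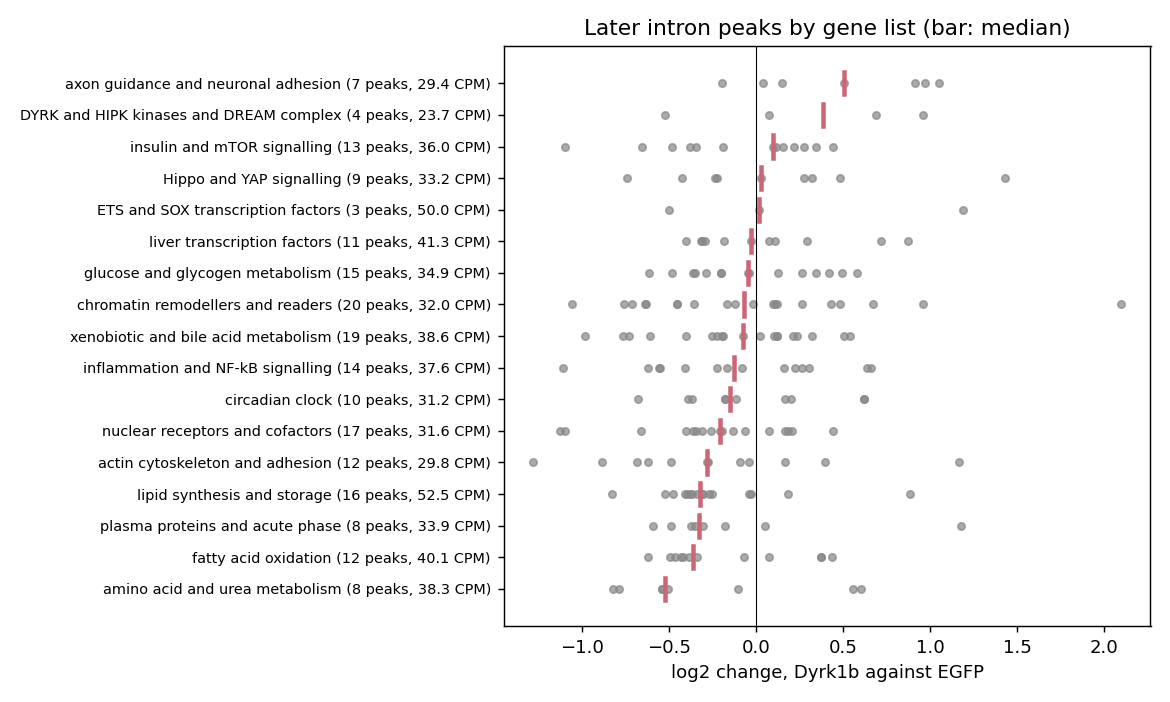
Log2 change, Dyrk1b over EGFP, of every tested later intron peak in 17 functional gene lists. Each point is 1 peak, red bars are list medians, the line marks 0, and each label gives the number of peaks and their median level. Medians run from −0.52 in amino acid and urea metabolism to 0.50 in axon guidance.

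Markers of liver cell types were set beside these values. Among members, hepatocyte markers had 3 tested peaks, with 1 positive and a median of −0.25. Liver endothelial markers had 8 with 3 positive and −0.015, which was 0.018 with library size alone. Macrophage markers had 4 with 2 positive and 0.075, where the myeloid factor Spi1 was at −0.50 ± 0.21 and the receptor gene Csf1r at 0.67 ± 0.33. One cholangiocyte marker had a member peak, and stellate, B, T and NK cell and neutrophil markers had none. Over peaks of every class, the summed level of hepatocyte marker peaks was 599 to 909 CPM in EGFP and 668 to 678 CPM in Dyrk1b libraries, so these overlapped. That of macrophage markers also overlapped, at 454 to 491 and 467 to 486 CPM. Endothelial markers summed to 379 to 415 CPM in EGFP and 428 to 449.9 CPM in Dyrk1b libraries, and cholangiocyte markers to 258 to 296 and 334 to 386 CPM, both higher in every Dyrk1b library. B cell markers, with 3 peaks outside the members, summed to 48.6 to 69.9 and 70.3 to 94.4 CPM and were also higher in every Dyrk1b library. The groups overlapped for stellate cell markers, at 77.4 to 82.01 and 74.98 to 109 CPM. They also overlapped for T and NK cell markers, at 140 to 172 and 142 to 160 CPM. Neutrophil markers, with a single peak, overlapped at 14.8 to 34.01 and 23.04 to 37.5 CPM. Of the 10 tested cholangiocyte peaks 9 were positive, while Krt19, Krt7, Epcam and Sox9 had no peak. Over peaks of every class, endothelial markers had 7 of 14 tested positive and a median log2 change of 0.085. Hepatocyte markers had 5 of 16 and −0.21, macrophage markers 7 of 11 and 0.16, and B cell markers 3 of 3 and 0.56. Among all tested peaks 50.5% were positive, with a median of 0.0047. The part of these cell types in the higher members, among them Nrp1, was not tested.

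The promoters of the same genes were compared with the member peaks where the gene also had a peak within 1 kb of its start. This gave 1185 pairs in 921 genes. The log2 changes of member and promoter peak had a Pearson r of 0.099 and a Spearman's rho of 0.12, given as a description because the pairs share the 6 libraries, and 53.9% of pairs had the same sign. Of the 93 such members with Dyrk1b values below all EGFP values, 69 had a promoter peak that was lower as well, with a promoter median of −0.17. Of the 129 with values above, 61 had a higher promoter peak, with a promoter median of −0.020. The median of all 1185 promoter peaks was −0.088, so most of them were lower. Their exact share was not counted, and these counts are therefore not read as agreement between intron and promoter. Among all tested peaks 9.97% had Dyrk1b values below all EGFP values and 9.53% had them above.

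Several of the peaks described above had such a promoter peak. At Mbd2 it was at 24.6, 35.2 and 45.7 CPM in EGFP libraries and 27.9, 51.8 and 38.4 CPM in Dyrk1b libraries. At Irak2 it was at 32.8, 59.5 and 68.6 CPM against 75.6, 71.7 and 54.5 CPM. At Cox10 it was at 70.3, 57.1 and 61.8 CPM against 77.0, 58.4 and 66.0 CPM. The groups overlapped at all 3 promoters, whereas they were apart at the intron peaks of the same genes. The promoter log2 changes were 0.18 ± 0.31 at Mbd2, 0.32 ± 0.26 at Irak2 and 0.082 ± 0.24 at Cox10. They were −0.21 ± 0.25 at Etv5, 0.15 ± 0.25 at Atg4c, 0.033 ± 0.24 at Mast2 and −0.078 ± 0.22 at Dop1b. The intron values of these genes were all larger in size than the promoter value of the same gene, though the intron peaks had been picked for low p-values.

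The promoters of Irak2 and Cox10 are shown because their intron peaks stood apart in opposite directions while the promoter peaks overlapped. Both are RefSeq sequences on GRCm38.p6, from 250 bases before to 50 after the start, Irak2 from chr6:113638217-113638516 on the plus strand and Cox10 from chr11:64079423-64079722 on the minus strand, written 5′ to 3′ along the gene. Their positions are on another build than the deposited peaks and are not comparable with them. Capitals mark a GC box (GGGCGG, or CCGCCC on the other strand), a CCAAT box (CCAAT or ATTGG) and a TATA box (TATAAA or TTTATA), all searched on both strands, with no overlap between motifs.
Irak2: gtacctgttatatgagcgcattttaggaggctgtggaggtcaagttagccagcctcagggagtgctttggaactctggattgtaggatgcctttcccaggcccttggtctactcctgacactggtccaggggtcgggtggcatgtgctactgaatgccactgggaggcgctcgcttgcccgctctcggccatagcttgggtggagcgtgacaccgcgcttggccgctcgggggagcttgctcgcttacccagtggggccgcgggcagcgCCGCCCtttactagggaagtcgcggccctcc
Cox10: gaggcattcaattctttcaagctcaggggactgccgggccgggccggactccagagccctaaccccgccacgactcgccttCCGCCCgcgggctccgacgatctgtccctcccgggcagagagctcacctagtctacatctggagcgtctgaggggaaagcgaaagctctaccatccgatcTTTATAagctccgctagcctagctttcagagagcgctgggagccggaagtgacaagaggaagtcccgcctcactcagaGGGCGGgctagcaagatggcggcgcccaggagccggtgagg
Both windows are rich in CpG, with 18 CpG at Irak2 and 23 at Cox10, and in G and C, with 62.3% and 63.0% against a median of 52.7% over 32851 mouse promoter windows. Irak2 has 1 GC box and neither of the other motifs, and Cox10 has 2 GC boxes and 1 TATA box. A GC box was found in 35.7% of all windows, a CCAAT box in 37.4% and a TATA box in 13.6%. A match is a description of letters and not of binding. The intron peaks themselves could not be read, since no genome of their build was used here.

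Some genes held several members. The 5 member peaks of Slc12a3, a sodium chloride cotransporter best known from the kidney, were chosen after their values were seen. All 5 had negative log2 changes, from −0.88 to −0.45, and 3 had groups apart. The peak in intron 21 at chr8:95080627-95081055 was at 59.8, 62.0 and 61.8 CPM in EGFP libraries and 19.9, 45.2 and 33.0 CPM in Dyrk1b libraries. The neighbouring peaks of 1 gene share its locus and are not independent, and none passed the test. Of the 182 genes with at least 3 members, 49 had all tested values on 1 side of 0. Most such genes were mixed, as in Col18a1, which encodes the collagen that yields endostatin, where 4 of 6 peaks in intron 2 were positive and the values ran from −0.28 to 0.57. Mical2, an enzyme that oxidises actin, had 5 tested of 6 peaks, with 4 positive and values from −0.50 to 0.72.

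The strongest members were few and took many reads. The 20 strongest held 7.72% of member reads, and 12 peaks of Sfi1, a centrosome protein gene with many near-identical copies in the mouse genome, held 4.91%. The Sfi1 peaks had mean levels from 288 to 1213 CPM and log2 changes from −0.12 to 0.17, none with groups apart. Reads of near-identical copies cannot be assigned with certainty, so these values belong to the copies together. The same applies to Sp110, an interferon-induced nuclear body gene with copies nearby, whose intron 3 peak was at −0.081 ± 0.26. The strongest of all was in intron 2 of 11 of Cdk8, the kinase of the Mediator complex (chr5:146197693-146198263). It was at 2816, 1951 and 2374 CPM in EGFP libraries and 1366, 1491 and 1318 CPM in Dyrk1b libraries. All Dyrk1b values were lower, at means of 2380.4 ± 433 and 1392 ± 89.1 CPM (SD, n = 3 each), with a log2 change of −0.77 ± 0.30 and an edgeR adjusted p of 0.255. No other member outside Sfi1 and Sp110 is among the 6 strongest.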

How the data were processed

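ATAC-seq reads in peaks were analysed for 3 EGFP and 3 Dyrk1b liver libraries, grouped by the labels. The authors deposited 1 table over a merged peak set with, per the file headers, whole read counts per peak, RPKM values made from them and group means, a log2 ratio of group means, a p-value and an FDR per peak, and the other columns give annotation and the distance to the start site. The submitters' processing notes name Bowtie2, DiffBind, ChIPseeker and mm10, with no versions. Not given in the sources used here are the peak caller, duplicate removal, any transposase shift and the authors' test. Peak names run to 30387, and peaks outside the table were not analysed here. Of 2728 member genes 2.64% start within 2 kb of their position in a GRCm38 table, with a median shift of 133 kb, so coordinates are those of the table and no build is named for them.

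Counts of all 22412 peaks were fitted with edgeR 4.0.16 in R 4.3.3 (TMM, filterByExpr, 1 group term, quasi-likelihood test), which left 22051 peaks and removed 361, and p was adjusted by Benjamini-Hochberg over all of them at a threshold of 0.05. The biological coefficient of variation was 19.9%. CPM is scaled to TMM-adjusted reads in peaks, log2 changes are Dyrk1b over EGFP with SE, and shares were compared by exact permutation over libraries. Alternatives were DESeq2 1.42.0, limma-trend (limma 3.58.1, prior count 2), loess offsets, other library sizes, no filter, a replicate block, a 25 kb limit, no demand on the nearest gene and leaving out each library. Dropping the demand on the nearest gene left the members unchanged. The fit was tested on simulated data. Within a group, every pair of libraries varied beyond sampling noise over members, with chi-square values of 2.10 to 2.80 for each degree of freedom, so none is a copy. The members and gene lists were chosen with earlier results of these data known. Peaks named were every called member, the 12 per direction with the lowest p and groups apart, 1 per gene and without predicted genes, the 6 strongest, genes with most members, up to 3 per functional and up to 2 per marker list by p; some of these are not reported here, and the peaks of Slc12a3 and the weaker peaks of Vgll4 fall outside it.

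In the authors' deposited table the lowest FDR among members was 0.0829, at Mbd2.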

Additional observations from a re-analysis of the deposited data

How the results depend on the processing

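With 3 libraries a group and a median of 23 to 42 reads per member, depth limits what single peaks can show, and intervals cover these libraries only. The count of called members was 1 and became 2 with DESeq2 (neither of them Mbd2), 0 with the totals behind the RPKM values, 0 by limma-trend, 0 with loess offsets and 0 under a 25 kb limit, which leaves out Mbd2, and it ranged from 0 to 1 when a library was left out. Where the count was 0, members with an unadjusted p under 0.05 were 390 higher and 54 lower with the totals, 312 and 303 by limma-trend, 218 and 351 with loess offsets and 208 and 208 under the 25 kb limit. Of the members at that p, 49.5% were lower, against 12.2% with the totals and 61.7% with loess offsets. In the main fit 6.44% of all peaks were higher and 7.72% lower at that p. With the totals, limma-trend and loess offsets all peaks were not counted in this way, and their medians were 0.17, 0.0083 and 0.019. The splits are therefore not read as particular to members. The members' median log2 change of 0.054 was 0.091 with library size alone, 0.22 with the totals and 0.033 with loess offsets. It was 0.040 to 0.065 when a library was left out. Over all peaks the called count of 7 was 18 with DESeq2, 4 with library size alone, 1 with the totals, 2 by limma-trend and 3 with loess offsets. The ratio to first intron peaks changed sign, from −0.0089 to 0.0097 as a median of log2 reads per peak, and ranged from −0.033 to 0.0055 when a library was left out. Its cause was not tested. The share difference ranged from 0.0885 to 0.402 percentage points and the ratio to deep intron peaks from −0.063 to −0.044 when a library was left out. The exact permutation p of the latter was 0.3 as a median of log2 reads per peak.

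Libraries share replicate numbers, but same-numbered libraries did not deviate together (r of −0.0098, −0.0144 and 0.0073). The values thus show no pairing by number, but at so few reads per peak they cannot exclude it. With the replicate block 1 member was called, Mbd2, and the median was 0.059. In the block the differences stayed at 0.199 percentage points for the share, −0.054 for the ratio to deep and −0.0089 for that to first intron peaks, with exact paired permutation p of 0.5, 0.25 and 1, where 0.25 is the smallest that 3 pairs allow.

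Peaks near 0 changed sign in some settings. Sfi1 at 3096728 was 0.045 with loess offsets. Sp110 was 0.034 with the totals and 0.081 with loess offsets. Sfi1 at 3112605 was −0.015 both by limma-trend and with the replicate block. Sfi1 at 3134644 was 0.0046 with library size alone, 0.070 with the totals and 0.12 with loess offsets. With a library left out, the ranges were −0.30 to 0.0028 for Sfi1 at 3096728, −0.25 to 0.18 for Sfi1 at 3112605, −0.36 to 0.16 for Sfi1 at 3134644, −0.30 to 0.080 for Sp110 and −0.12 to 0.21 for Ets2.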

Other observations

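The table holds 1 peak on chromosome Y, and it is a member, in intron 3 of the gene ENSMUSG00000096768 (chrY:90823787-90824313). It was at 32.8, 18.2 and 36.3 CPM in EGFP libraries 1, 2 and 3 and at 1.33, 26.5 and 6.91 CPM in Dyrk1b libraries 1, 2 and 3. Dyrk1b library 1 held a single read there. The log2 change was −1.31 ± 0.50, the groups overlapped, and the edgeR adjusted p was 0.246.

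Members made up between 12.7% of the peaks on chromosome X and 20.4% of those on chromosome 19. Chromosome X thus had the lowest share among the autosomes and X, at 36 of 283 peaks.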
